A study of Mus musculus with 8 samples.

Results

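The Hox genes of the 4 clusters were followed through the change of the notochord into the nucleus pulposus (NP). The set was a list of 38 Hox genes, read by gene identifier from the count table of 43346 genes: 10 from HoxA, 10 from HoxB, 9 from HoxC and 9 from HoxD. Hox antisense genes were left out. All 38 had a count in at least 1 sample, as did 32299 genes of the whole table.

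The samples were notochord-derived cells (NDCs) of Shh-cre;ROSA:YFP mice, in which Cre under the control of Shh turns on YFP permanently, so that notochord cells and all cells descended from them stay marked. There were 4 samples at embryonic day 12.5 (E12.5) and 4 at postnatal day 0 (P0), each a pool of the animals of 1 litter. The E12.5 litters are named NDP10.2, NPD3, NPD4 and NPD9.2 and those of P0 are NPD26, NPD27, NPD28 and NPD30. Values follow that order throughout. At E12.5 the notochord was dissected whole and put into TRIzol without sorting. At P0 NP cells were shaken out of thoracic and lumbar discs and sorted for YFP. Stage, isolation and the stretch of the body axis sampled therefore changed together and cannot be told apart. This bears directly on Hox genes, whose activity differs along the axis. Shh is also active in other embryonic tissues, such as the floor plate and the gut, and both stages carried the same alleles.

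Hox genes encode homeodomain transcription factors that give each level of the body axis its identity. Within a cluster they lie in the order in which they are used, from paralog group 1, active far forward, to group 13, active in the tail bud, and genes of the same paralog group in different clusters are each other's closest relatives. In the vertebral column, the middle groups shape cervical and thoracic vertebrae, group 10 suppresses ribs in the lumbar region and group 11 patterns the sacrum. Hox proteins bind DNA together with the TALE homeodomain proteins of the Pbx, Meis and Prep families. Retinoic acid, Cdx proteins and Gdf11 help set where Hox genes are switched on, and Trithorax and Polycomb proteins keep that state.

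Counts on genes numbered 4442775 to 7180221 per sample at E12.5 and 6371842 to 8904050 at P0, so that 3 counts were worth 0.337 to 0.675 CPM (counts scaled to library size), a floor that covers counting error only. Of 10 notochord and NP markers, 9 were tested. Car3, Cd24a and Krt19 rose (log2 fold changes 2.97, 1.33 and 1.74), the calls of the last 2 holding in 6 and 4 of the 8 fits without 1 litter. Shh and Foxa1 fell by 7.14 and 2.23 on the log2 scale. T (means of 584 and 1319 CPM), Foxa2, Krt8 and Krt18 did not pass the test, and Noto was at or near 0 in every litter. Cells of other types were represented at both stages. The summed level of 8 leukocyte genes went from 48.2 to 154 CPM in the E12.5 litters to 456 to 4658 CPM in the P0 litters, and all 8 rose. The summed level of 7 sclerotome genes was 158 to 225 CPM at E12.5 against 12.9 to 27.7 CPM at P0, and all 7 fell. Genes of liver and gut endoderm summed to 42.3 to 700.3 CPM at E12.5 but 0.471 to 1.73 CPM at P0. In bulk RNA a loss of cells that use a gene and a loss of RNA per cell cannot be told apart, and the part of these other cells in the Hox values was not tested.

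Hox mRNA abundance was lower at P0. The 38 genes together took 653.7, 480.0, 690.7 and 689.2 CPM in the E12.5 litters and 159.6, 143.6, 88.1 and 198.9 CPM in the P0 litters. Each P0 sum lay well below each E12.5 sum. Of the 38 genes, 32 had enough counts to be tested with edgeR's quasi-likelihood test, and 20 of these were significantly lower at P0 (adjusted p under 0.05), against 12.0% of the 15467 genes tested. None was significantly higher, against 16.0% of all genes tested. At an unadjusted p under 0.05, 23 were lower and 0 higher, and after adjustment DESeq2 and limma-voom each gave 23 lower and 0 higher. These tools called 15.2% and 12.1% of all genes lower and 18.3% and 14.2% higher. The log2 fold change, P0 over E12.5, was below 0 for 31 of the 32 and had a median of -1.97, whereas the median over all genes tested was 0.04. In 23 of the 32 every P0 litter lay below every E12.5 litter, which held for 14.4% of all genes tested. Among the 20, 11 were lower in every one of the 18 fits in which the gene was tested: Hoxa5, Hoxb3, Hoxb4, Hoxb5, Hoxb6, Hoxb8, Hoxb9, Hoxc4, Hoxc5, Hoxc6 and Hoxc8. With the E12.5 litters NDP10.2 and NPD9.2 left out, which stood apart in the share of reads that fitted more than 1 gene, the number lower was 11, against 6.41% of all genes in that fit, which compared fewer samples.

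**Figure D1:**
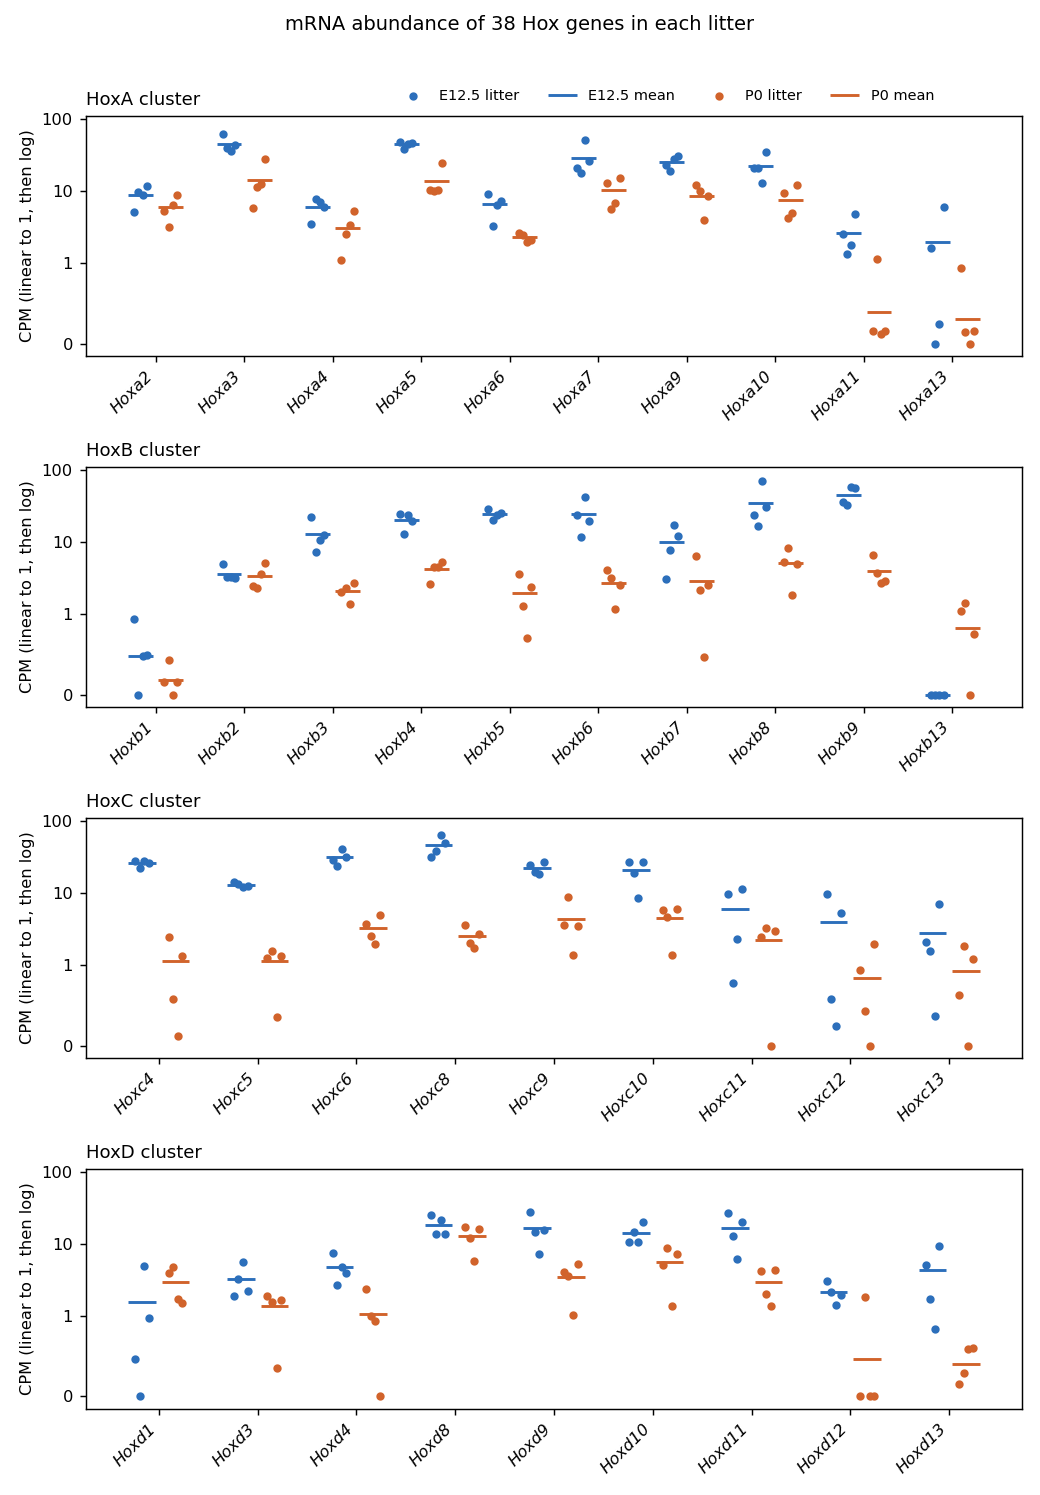
mRNA abundance of the 38 Hox genes in CPM (vertical axis, linear up to 1 and logarithmic above) for each E12.5 litter (blue points) and P0 litter (orange points), with the mean of the 4 litters as a bar, 1 panel per cluster and genes in paralog order. Points of the 2 stages separate widely in the middle of HoxB and HoxC and overlap for Hoxa2, Hoxb2, Hoxd1 and Hoxd8.

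The genes were next compared by cluster. HoxA lies on chromosome 6 from 52162417 to 52260880 (GRCm38, the span of the genes listed), HoxB on chromosome 11 from 96194316 to 96368256, HoxC on chromosome 15 from 102921103 to 103036852 and HoxD on chromosome 2 from 74668310 to 74765142. In each cluster 8 genes were tested. Significantly lower at P0 were 6 HoxA genes, with a median log2 fold change over the 8 tested of -1.54, 6 HoxB genes (median -2.71), 6 HoxC genes (median -2.80) and 2 HoxD genes (median -1.72). In the 8 fits without 1 litter, which called 9.46% to 12.0% of all genes lower, HoxA had 4 to 7 lower genes, HoxB 6 to 7, HoxC 6 and HoxD 2 to 4. Without both NDP10.2 and NPD9.2 the numbers were 1, 6, 4 and 0, against 6.41% of all genes. The HoxD number also depended on the method. In the same order of clusters, DESeq2 gave 6, 7, 6 and 4 lower genes and limma-voom 6, 6, 6 and 5. Without the filter on low counts they were 6, 7, 6 and 5, with medians of -1.54, -2.43, -2.37 and -2.14. These 3 fits called 15.2%, 12.1% and 5.97% of all genes lower. These cluster medians are descriptions, and the difference between clusters was not tested.

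HoxC had the largest fold difference in summed level. Its 9 genes took 177, 141, 177 and 199 CPM in the E12.5 litters and 24.7, 26.1, 7.06 and 26.2 CPM in the P0 litters, 8.25-fold less on average. HoxB was 6.44-fold, HoxA 2.89-fold and HoxD 2.61-fold lower in mean summed CPM at P0. The balance between clusters shifted with this. HoxA made up a mean of 31.1% of summed Hox CPM at E12.5 (28.9% to 33.3% over the 4 litters) and 46.3% at P0 (35.6% to 58.0%). HoxC made up 27.7% ± 1.72 and 13.7% ± 4.31 (SD, n = 4 litters). HoxB went from 28.0% ± 5.61 to 19.1% ± 3.05 and HoxD from 13.2% ± 3.06 to 20.9% ± 4.87. Divided by exon length, the shares of HoxA were 29.1% and 44.5% and those of HoxC 29.3% and 15.3%. The ratio of HoxA to HoxC was nearly the same in all E12.5 litters, at 1.13, 1.13, 1.13 and 1.10, and was 2.48, 1.96, 7.23 and 4.04 in the P0 litters. All P0 ratios lay above all E12.5 ratios, with a wide spread among them.

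**Figure D2:**
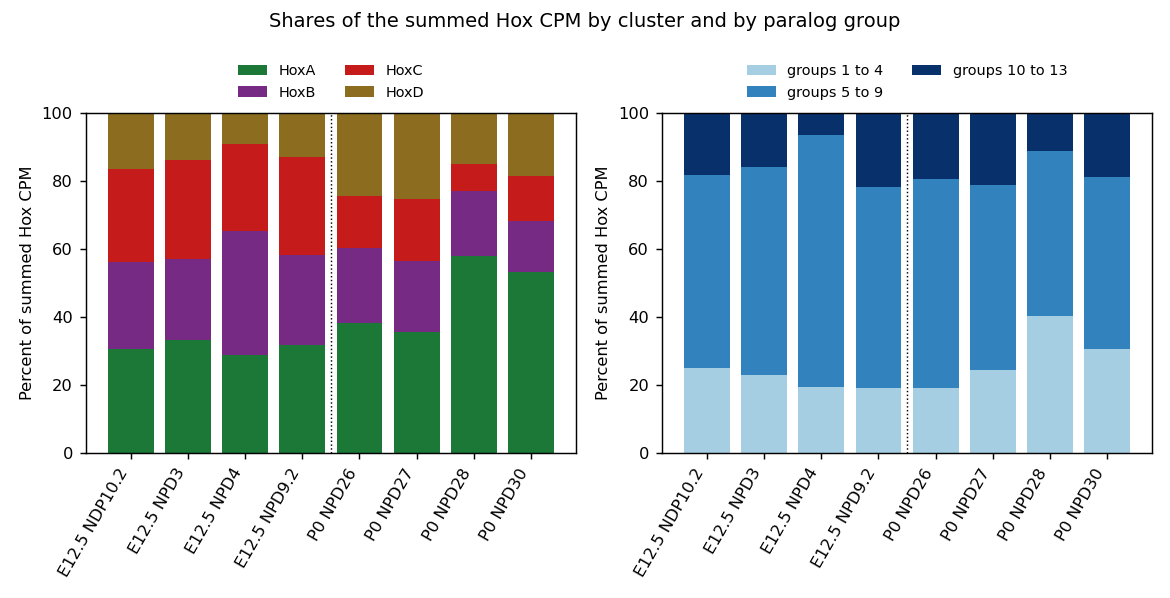
Share of the summed Hox CPM (vertical axis, percent) taken by each cluster (left) and by paralog groups 1 to 4, 5 to 9 and 10 to 13 (right) in each litter, E12.5 left of the dotted line and P0 right of it. HoxA is 28.9% to 33.3% of the sum at E12.5 and 35.6% to 58.0% at P0, and groups 10 to 13 are smallest in NPD4, at 6.67%.

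The largest falls were those of Hoxc4 and Hoxc8. The abundance of Hoxc4, which patterns cervical and upper thoracic levels, was 28.1, 22.6, 28.3 and 26.6 CPM at E12.5 and 2.52, 0.577, 0.118 and 1.36 CPM at P0. The E12.5 litters were close to each other and far above the P0 litters, of which NPD28 was under the 3-count floor. The log2 fold change was -4.55 (standard error 0.61, adjusted p = 0.000587). Hoxc8, a thoracic gene that also specifies motor neurons of the forelimb level, was at 31.6, 38.6, 65.2 and 49.7 CPM at E12.5 and at 3.62, 2.02, 1.77 and 2.73 CPM at P0. It had the smallest adjusted p of the Hox genes (log2 fold change -4.19, standard error 0.35, adjusted p = 6.66e-05). The order of Hoxc4 and Hoxc8 was reversed in 1 of 2 random draws of downsampled counts (-4.46 and -4.54). Hoxc5 and Hoxc6, the genes between them, fell by 3.53 and 3.24 on the log2 scale (adjusted p = 0.00052 and 0.000219), and their stages did not overlap. Hoxc9, of the lower thoracic region, went from 22.5 ± 3.95 CPM to 4.36 ± 3.21 CPM (mean and SD, n = 4) (log2 fold change -2.36, adjusted p = 0.0045). Hoxc10, a lumbar gene, was at 27.6, 19.1, 8.58 and 27.5 CPM and then at 5.82, 4.76, 1.41 and 6.06 CPM (log2 fold change -2.20, adjusted p = 0.00813). NPD4 was lowest at E12.5 and NPD28 at P0. The posterior genes Hoxc11 and Hoxc13 had log2 fold changes of -1.43 and -1.54 that did not pass the test (adjusted p = 0.325 and 0.293), and their stages overlapped.

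In HoxB, Hoxb5 and Hoxb9 had the largest changes. Hoxb5, which acts around the junction of neck and trunk, was at 29.0, 20.7, 24.1 and 25.8 CPM at E12.5 and at 3.62, 1.30, 0.706 and 2.43 CPM at P0 (log2 fold change -3.64, standard error 0.46, adjusted p = 0.000444). Hoxb9, of the group that shapes the rib cage, was at 36.1, 32.8, 57.7 and 56.6 CPM and then at 6.76, 3.75, 2.71 and 2.88 CPM (log2 fold change -3.51, standard error 0.37, adjusted p = 0.000188). Neither gene had overlapping stages. Hoxb6 and Hoxb8 had log2 fold changes of -3.15 and -2.79 (adjusted p = 0.00117 and 0.00382), and Hoxb3 and Hoxb4 of -2.63 and -2.24 (adjusted p = 0.00182 and 0.00108). Hoxb8 had the largest SD in CPM among the E12.5 litters, with 23.6, 16.8, 70.0 and 31.0 CPM. Hoxb7 did not pass the test (log2 fold change -1.81, adjusted p = 0.083). It passed with DESeq2, and its stages overlapped because NDP10.2, at 3.07 CPM, lay below the P0 litter NPD26, at 6.45 CPM. Hoxb2, a hindbrain gene, was at 4.95, 3.32, 3.26 and 3.20 CPM and at 2.52, 2.31, 3.65 and 5.15 CPM (log2 fold change -0.11, standard error 0.45, adjusted p = 0.888), and the sign of its change depended on the litters used.

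The HoxA genes that fell did so by similar amounts. The 6 that passed had log2 fold changes from -1.69 to -1.50: Hoxa3, Hoxa5, Hoxa6, Hoxa7, Hoxa9 and Hoxa10. Hoxa5, which patterns the cervical to thoracic junction and the lung, was at 48.6, 39.2, 45.2 and 46.5 CPM at E12.5 and at 10.5, 10.1, 10.5 and 24.6 CPM at P0 (log2 fold change -1.69, standard error 0.32, adjusted p = 0.00323). Its 3 lower P0 litters were nearly equal, and NPD30 stood above them without reaching the E12.5 litters. Hoxa3, needed for the thymus and neck, averaged 45.7 ± 12.0 CPM and then 14.6 ± 9.73 CPM (log2 fold change -1.64, adjusted p = 0.0149). Hoxa9 averaged 25.5 ± 5.24 and 8.71 ± 3.45 CPM (adjusted p = 0.00786), and Hoxa10, of the lumbar group, 22.6 ± 9.31 and 7.71 ± 3.72 CPM (adjusted p = 0.0184). The calls of Hoxa6 (adjusted p = 0.0264) and Hoxa7 (adjusted p = 0.022) held in 2 and 5 of the 8 fits that left out 1 litter, the latter being lost without NPD4, NPD27 or NPD28, and that of Hoxa10 was lost without NPD9.2. Hoxa6 lay at 2.00 to 2.67 CPM in all P0 litters and at 3.32 CPM or above at E12.5. Hoxa2, which specifies the second pharyngeal arch, was at 5.19, 9.76, 8.83 and 12.0 CPM and at 5.35, 3.17, 6.47 and 8.94 CPM. Its stages overlapped, and neither Hoxa2 (log2 fold change -0.58, standard error 0.42, adjusted p = 0.336) nor Hoxa4 (log2 fold change -0.99, standard error 0.52, adjusted p = 0.182) passed the test.

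In HoxD, Hoxd9 and Hoxd11 were the genes that passed. Hoxd11, of the sacral group, was at 26.9, 12.9, 6.29 and 20.2 CPM at E12.5 and at 4.25, 2.02, 1.41 and 4.40 CPM at P0 (log2 fold change -2.45, standard error 0.53, adjusted p = 0.00623). Hoxd9 was at 28.3, 14.6, 7.37 and 16.0 CPM and at 4.09, 3.61, 1.06 and 5.31 CPM (log2 fold change -2.23, standard error 0.54, adjusted p = 0.0099). Both were lowest in NPD4 among the E12.5 litters and in NPD28 among the P0 litters. Hoxd3, Hoxd4 and Hoxd10 did not pass (adjusted p = 0.154, 0.0656 and 0.0728), although every P0 litter lay below every E12.5 litter, and Hoxd4 and Hoxd10 passed with DESeq2 and limma-voom. Hoxd8 was at 25.2, 13.9, 21.8 and 14.02 CPM and at 17.1, 12.4, 5.77 and 16.2 CPM (log2 fold change -0.54, standard error 0.38, adjusted p = 0.316), and the stages overlapped. Hoxd12 had 1 P0 litter with counts, NPD27 at 1.87 CPM, and 0 in the other 3 (log2 fold change -2.15, adjusted p = 0.186). It was called lower with limma-voom (adjusted p = 0.0235) and without NPD27 (adjusted p = 0.00656). Hoxd1 was the tested gene with a change above 0 (log2 fold change 0.81, standard error 0.93, adjusted p = 0.559). Its counts were 2, 0, 41 and 4 at E12.5 and 25, 34, 15 and 10 at P0, so that NPD4 alone carried most of the E12.5 signal.

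**Figure D3:**
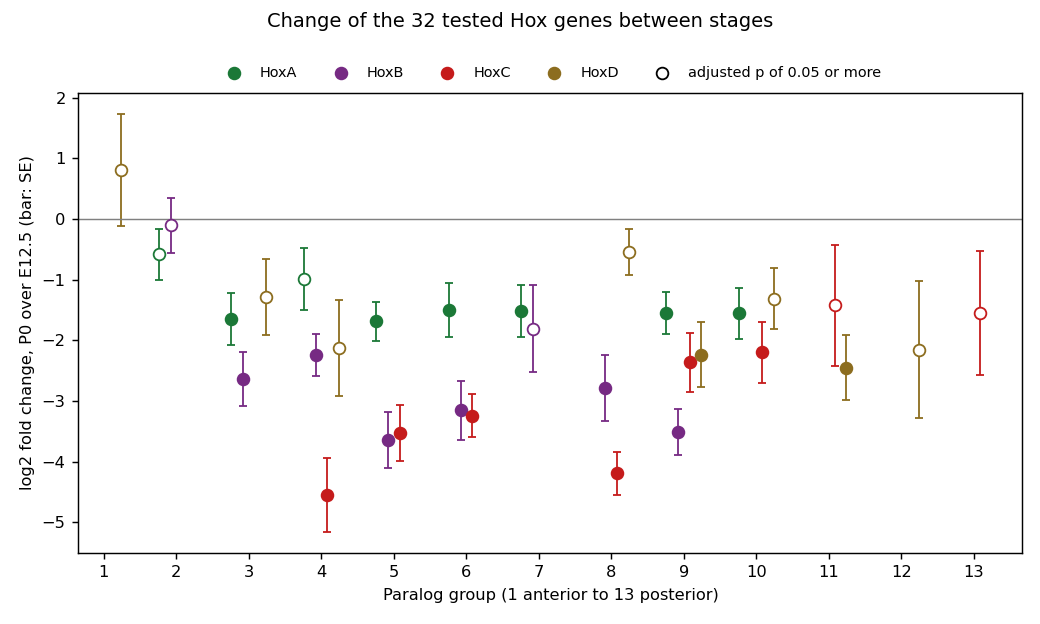
Log2 fold change, P0 over E12.5 (vertical axis), with its standard error as a bar, for the 32 tested Hox genes by paralog group (horizontal axis), coloured by cluster. Filled points passed an adjusted p under 0.05 and open points did not. The filled points lie between -4.55 and -1.50 and gather in groups 3 to 11.

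By paralog group, the middle of the series held most of the calls. Of groups 5 to 9 all 15 genes were tested and 13 were significantly lower, with a median log2 fold change of -2.36. Of groups 1 to 4, 10 of 11 were tested and 4 were lower (median -1.46), and of groups 10 to 13, 7 of 12 were tested and 3 were lower (median -1.55). Of all genes tested 12.0% were lower. The gap to groups 10 to 13 depended on the filter on low counts. Without it, 6 of these 12 genes were lower and 1 was higher (median -2.19). In that fit 13 genes of groups 5 to 9 (median -2.37) and 5 of groups 1 to 4 (median -1.29) were lower, against 5.97% of all genes. Without NDP10.2 and NPD9.2 the lower genes of groups 5 to 9, 1 to 4 and 10 to 13 numbered 8, 3 and 0, against 6.41% of all genes. All members of groups 5 (3 genes), 6 (3 genes) and 9 (4 genes) were lower, and no tested gene of groups 1, 2, 12 and 13. The latter rests on few genes, as 1 of 2 was tested in group 1, 2 of 2 in group 2, 1 of 2 in group 12 and 1 of 4 in group 13. Because the P0 cells came from thoracic and lumbar discs and the E12.5 notochords from the whole axis, the neck, sacrum and tail, where genes of both ends of the series act, were sampled at E12.5 and not at P0. In share of summed Hox CPM, groups 1 to 4 went from 21.6% ± 2.77 to 28.5% ± 9.12, groups 5 to 9 from 62.7% ± 7.64 to 53.7% ± 5.73, and groups 10 to 13 from 15.7% ± 6.47 to 17.7% ± 4.44 (SD, n = 4 litters).

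Close relatives in different clusters had unequal log2 fold changes. In group 4 the log2 fold changes were -4.55 for Hoxc4, -2.24 for Hoxb4, -2.13 for Hoxd4 and -0.99 for Hoxa4, a spread of 3.56. In group 8 they were -4.19 for Hoxc8, -2.79 for Hoxb8 and -0.54 for Hoxd8, a spread of 3.65. In groups 5 and 6 the HoxB and HoxC genes fell by over 3 on the log2 scale and the HoxA genes by 1.69 and 1.50. Group 9 had all 4 clusters lower, from -3.51 for Hoxb9 to -1.55 for Hoxa9. Differences between paralogs were not tested.

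Levels of different genes were compared per kb of exon length. At E12.5 Hoxa5 had the highest level, 23.9 ± 2.14 CPM per kb, followed by Hoxb9 (17.8 ± 5.12), Hoxc8 (16.3 ± 5.16), Hoxb8 (13.4 ± 9.04) and Hoxc6 (13.1 ± 2.93 CPM per kb). Each of these genes and the next in the order lay within their summed SDs, whereas Hoxa5 stood above Hoxc8, Hoxc6 and Hoxc4 (10.3 ± 1.02 CPM per kb) by more than the summed SDs. At P0 Hoxa5 was again highest, 7.41 ± 3.78 CPM per kb, followed by Hoxd8 (4.69 ± 1.88), Hoxa7 (3.58 ± 1.63), Hoxa2 (3.37 ± 1.35) and Hoxd10 (3.14 ± 1.78 CPM per kb), neighbours that do not differ beyond their spread. The order of the genes changed between stages. Hoxd8 moved from rank 18 of 38 to rank 2 and Hoxa2 from 20 to 4, Hoxc8 went from rank 3 to 23, Hoxb9 from 2 to 17 and Hoxc4 from 8 to 28.

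The filter on low counts removed 6 genes: Hoxb1 and the posterior genes Hoxa11, Hoxa13, Hoxb13, Hoxc12 and Hoxd13. Hoxd13, a gene of the tail and digits, had 22, 9, 7 and 39 counts at E12.5 and 1, 2, 5 and 4 at P0. Hoxa11, of the sacral group, had 11, 7, 15 and 20 and then 1, 8, 1 and 1. Hoxa13 had 7, 0, 2 and 25 and then 6, 1, 0 and 1, and Hoxc12 had 42, 3, 2 and 22 and then 6, 3, 0 and 13. For the last 2 the stages overlapped. Hoxb1, active in the hindbrain, had 0 to 4 counts in every litter. Hoxb13, which limits the length of the tail, was the exception in direction. It had 0 counts in all E12.5 litters and 7, 10, 0 and 5 counts in the P0 litters. With the reads of each stage pooled, its P0 level of 0.765 CPM was 5.41-fold above a floor of 3 counts over the E12.5 group (0.141 CPM on library sizes without TMM). Pooling ignores the spread between litters, so this is not a lower bound on the difference between stages. Without the filter on low counts it was called higher in edgeR (adjusted p = 0.0464), in a fit that called 9.18% of all genes higher and 5.97% lower, and it rests on 22 reads in 3 litters. The same fit called Hoxd13 (log2 fold change -3.27, adjusted p = 0.00284) and Hoxa11 (log2 fold change -2.70, adjusted p = 0.0469) lower, and Hoxd13 was also lower in 5 of the 8 fits without 1 litter.

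Litters of the same stage differed along the paralog series. At E12.5 the genes of groups 11 to 13 summed to 61.1 CPM in NDP10.2 and 66.6 CPM in NPD9.2, and to 21.1 CPM in NPD3 and 13.5 CPM in NPD4. Of the 11 genes of groups 10 to 13 with counts, NPD9.2 was highest for 7 and NDP10.2 for 4, and NPD4 was lowest for 7. Hoxc11 shows the pattern, with 9.67, 0.781, 2.30 and 11.3 CPM. NPD4 was instead highest for 7 of the 15 genes of groups 5 to 9. Hoxa7 was at 52.2 CPM in NPD4 against 18.0 to 26.3 CPM in the other E12.5 litters, and Hoxb6 at 42.6 CPM against 11.7 to 23.6 CPM. Groups 10 to 13 made up 18.4%, 15.9%, 6.67% and 21.8% of summed Hox CPM in the 4 litters. Other tissue markers also varied between these litters, not all in the same way. Those of liver and gut and of skeletal muscle were highest in NDP10.2 and NPD9.2, whereas for limb and lateral plate genes NPD3 lay above NDP10.2. Liver and gut genes summed to 576, 42.3, 217 and 700.3 CPM, skeletal muscle genes to 139, 55.8, 33.0 and 122 CPM, and limb and lateral plate genes to 79.97, 112, 50.8 and 136 CPM. Neural tube genes summed to 1292 CPM in NPD4 and to 88.8 to 127 CPM in the others. The neuronal genes Tubb3, Isl1 and Elavl3, at 576, 392 and 289 CPM, made up most of the NPD4 sum. The other neural tube genes were mixed. Sox2 and Nkx2-2 were also highest in NPD4, at 27.0 and 1.57 CPM, Pax6 and Mnx1 were lowest there, and Sox1, Olig2 and Neurog2 were highest in NPD9.2. Reads that fitted more than 1 gene numbered 72.0 and 71.2 per 100 counted in NDP10.2 and NPD9.2 and 35.7 and 31.6 in NPD3 and NPD4. The part of these in the Hox differences was not tested.

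At P0 the litter NPD28 had the lowest summed Hox level in the deepest library. It was lowest for 13 of the 15 genes of groups 5 to 9, for 9 of the 12 of groups 10 to 13 and for all 9 HoxC genes, and 31 of the 38 genes had a count in it, against 36 to 38 in the other P0 litters. HoxC summed to 7.06 CPM in NPD28 and to 24.7 to 26.2 CPM in the others. Groups 1 to 4 did not follow this. They summed to 30.3, 34.9, 35.4 and 60.6 CPM in the P0 litters, and NPD28 was lowest for 4 of the 11 genes. Groups 11 to 13 summed to 10.7, 12.5, 2.12 and 12.3 CPM. NPD30 was highest for 6 of the 10 HoxA genes, among them Hoxa3 at 28.5 CPM against 5.82 to 12.7 CPM. Neutrophil genes summed to 4848 CPM in NPD28 and to 571 to 707 CPM in the others. This list was mixed: S100a8, S100a9, Ltf and Camp were highest in NPD28, whereas Mpo and Elane were lowest there, at 22.8 and 1.29 CPM. Neural crest and Schwann genes summed to 471, 634, 20.6 and 52.6 CPM. Leukocyte genes summed to 456 CPM in NPD30 and to 4099 to 4658 CPM in the others, and notochord and NP markers to 31824 CPM in NPD30 and to 8220 to 12595 CPM in the others. Their part in the Hox differences was not tested. Without NPD28, 19 Hox genes were lower at P0, of which 18 were among the 20, against 10.8% of all genes. Without NPD30 the number was 20, against 12.0%.

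**Figure D4:**
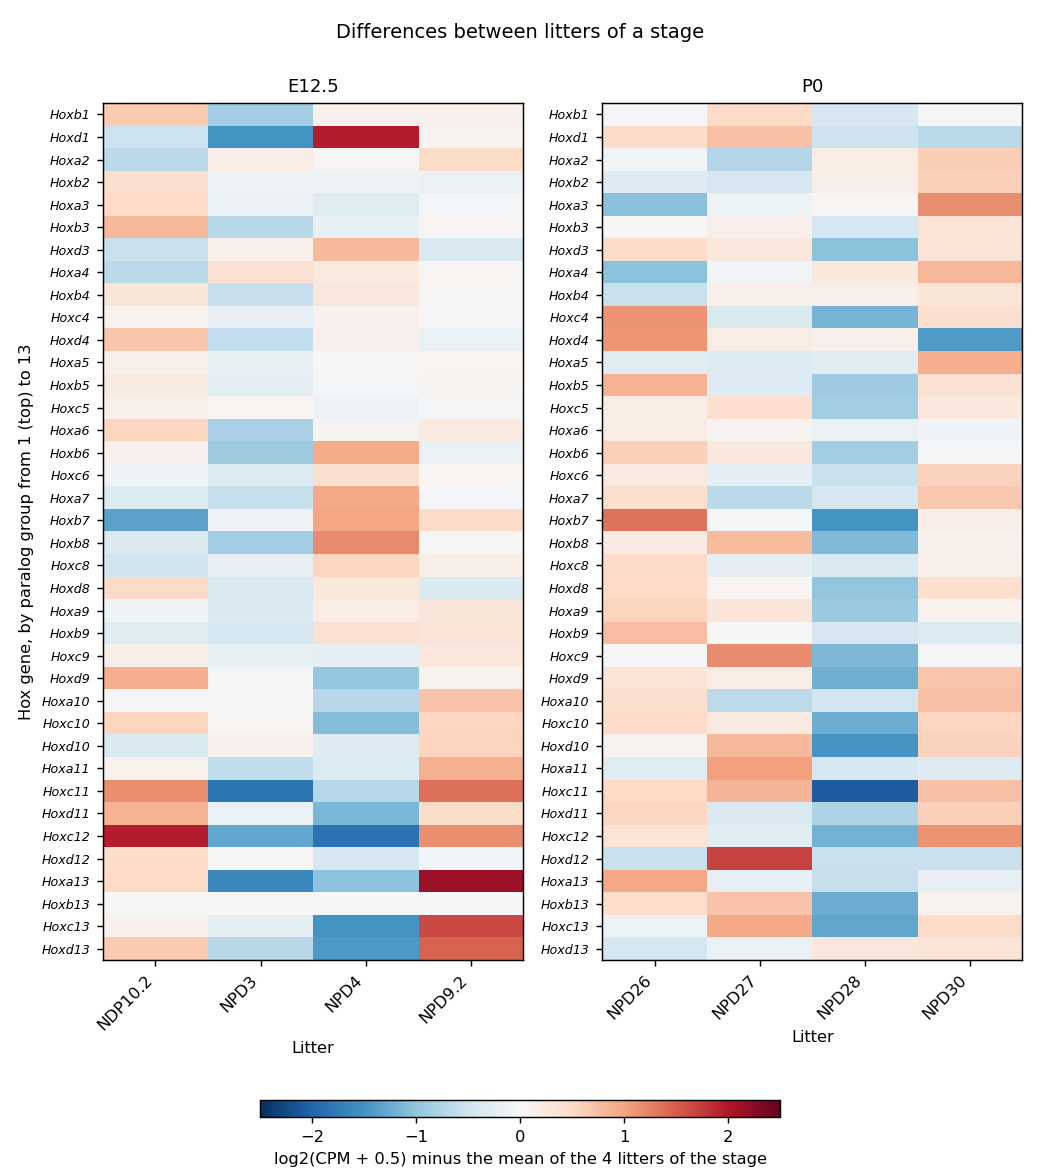
Difference of each litter from the mean of its stage, as log2(CPM + 0.5) (colour), for the 38 Hox genes from paralog group 1 at the top to 13 at the bottom, E12.5 left and P0 right. At E12.5, NPD9.2 is above and NPD4 below the mean among the posterior genes at the bottom, and at P0 NPD28 is below the mean for most genes.

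The genes of a cluster share stretches of DNA and some share exons. In Gencode M21, a later version than the M4 used for counting, 23 of the 38 genes have no exon bases in common with another gene. Of the 18 of these that were tested 12 were lower at P0, with a median log2 fold change of -2.19. Of the 15 with shared bases, 14 were tested and 8 were lower (median -1.60). Of all genes tested 12.0% were lower, and the difference between these 2 sets of Hox genes was not tested. Bases shared on the same strand covered 62.4% of the exons of Hoxd3 and 52.3% of those of Hoxd4, which overlap each other, so that strand would not separate them. Bases shared with transcripts of the opposite strand covered 52.9% of Hoxb3, 35.0% of Hoxa11, 27.3% of Hoxb2, 25.4% of Hoxa3 and 20.4% of Hoxa7. Whether the counting used strand is not given in the sources used here, so the values of these 7 genes are uncertain. The genes with the largest falls, Hoxc4 and Hoxc8, share none in this version of the annotation.

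Upstream sequences are shown for 4 genes that differ in how they moved: Hoxc4 with one of the largest falls, Hoxb8 with a fall and a match to a Pbx-Hox type motif, and Hoxa2 and Hoxd8 whose changes did not pass the test. Each is the 250 bases before a transcription start in RefSeq (GRCm38.p6), read in the direction of the gene. The genes were chosen after their values were seen. Capitals mark matches, on either strand, to TGATNNAT, a form of the site that Pbx and Hox proteins bind together, and to CCAAT, the site of NF-Y. No matches overlap in the 4 sequences. The positions are chr15:103034145-103034394 (plus strand) for Hoxc4, chr11:96281655-96281904 (plus strand) for Hoxb8, chr6:52164832-52165081 (minus strand) for Hoxa2 and chr2:74704365-74704614 (plus strand) for Hoxd8.
Hoxc4: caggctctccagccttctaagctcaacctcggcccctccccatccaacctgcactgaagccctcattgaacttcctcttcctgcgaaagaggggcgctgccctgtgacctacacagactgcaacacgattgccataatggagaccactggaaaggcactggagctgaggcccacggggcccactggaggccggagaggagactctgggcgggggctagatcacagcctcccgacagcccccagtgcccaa
Hoxb8: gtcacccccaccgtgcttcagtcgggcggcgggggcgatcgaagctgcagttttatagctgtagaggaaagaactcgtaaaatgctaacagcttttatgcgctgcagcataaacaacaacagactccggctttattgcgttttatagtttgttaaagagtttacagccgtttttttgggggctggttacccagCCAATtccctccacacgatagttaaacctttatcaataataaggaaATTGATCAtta
Hoxa2: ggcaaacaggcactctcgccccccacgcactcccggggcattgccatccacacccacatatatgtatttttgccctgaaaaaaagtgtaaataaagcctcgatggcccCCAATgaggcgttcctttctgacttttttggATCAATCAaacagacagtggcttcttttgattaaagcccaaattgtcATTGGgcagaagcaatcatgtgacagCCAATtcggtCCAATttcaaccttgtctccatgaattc
Hoxd8: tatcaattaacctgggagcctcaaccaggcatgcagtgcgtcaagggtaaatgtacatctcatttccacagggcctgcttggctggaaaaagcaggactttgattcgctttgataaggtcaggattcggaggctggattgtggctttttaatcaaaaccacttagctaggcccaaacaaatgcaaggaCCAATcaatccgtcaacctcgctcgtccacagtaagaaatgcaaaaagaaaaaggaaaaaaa

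RefSeq had 24 such sequences for 22 of the 38 genes. TGATNNAT was found in 4 of the 24 (16.7%), those of Hoxa2, Hoxb1, Hoxb8 and Hoxd11, and in 7.68% of 32851 upstream sequences of the genome. CCAAT was found in 14 of the 24 (58.3%) and in 33.8% of all. Hoxa2 had 4 CCAAT matches and 1 of TGATNNAT, Hoxb8 had 1 of each, Hoxd8 had 1 CCAAT match and Hoxc4 had neither. The dinucleotide CG occurred a median of 12.5 times in the 24 sequences and 6 times in all. These matches are descriptions of letters in the window and do not show binding.

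The partners of Hox proteins fell in part. Of 8 TALE genes, all tested, 3 (37.5%) were significantly lower at P0, against 12.0% of all genes tested. None was significantly higher in edgeR, with 1 higher at an unadjusted p under 0.05, Pbx4, and 1 in DESeq2. Meis2 was at 167, 189, 108 and 211 CPM at E12.5 and at 18.9, 13.1, 9.18 and 18.6 CPM at P0 (log2 fold change -3.50, standard error 0.32, adjusted p = 0.000109). Meis1 was at 78.6, 108, 50.0 and 108 CPM and at 17.0, 21.9, 17.8 and 17.7 CPM (log2 fold change -2.21, standard error 0.28, adjusted p = 0.000454). Neither had overlapping stages, and in both NPD4 was the lowest E12.5 litter. Meis3 had a log2 fold change of -1.24 and adjusted p = 0.0148. Pbx2, Pbx3, Pknox1 and Pknox2 had log2 fold changes from -0.61 to 0.25 and did not pass, and Pbx4 had 1.30 (adjusted p = 0.0764).

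**Figure D5:**
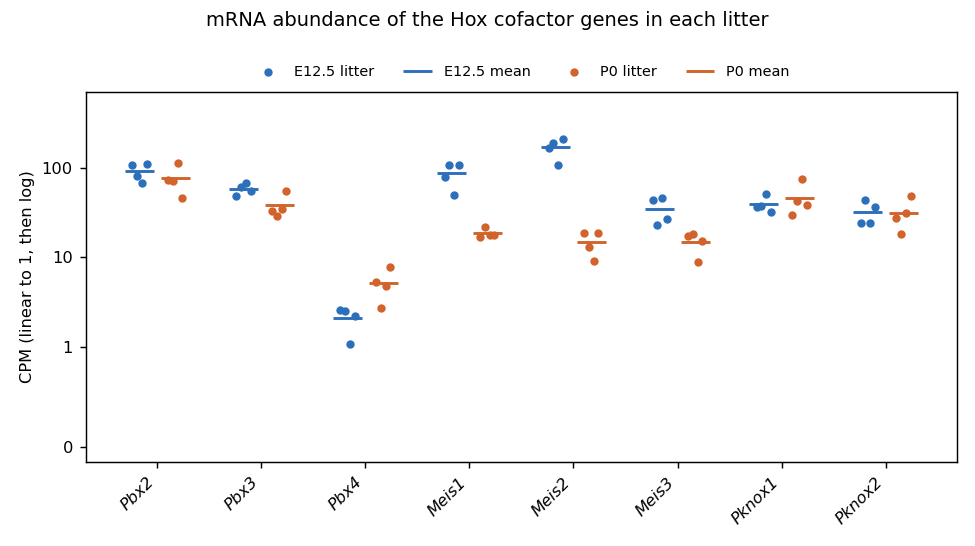
mRNA abundance of 8 TALE cofactor genes in CPM (vertical axis, linear up to 1 and logarithmic above) in each E12.5 litter (blue) and P0 litter (orange), with the stage mean as a bar. Meis2 averages 169 CPM in the E12.5 litters and 14.96 CPM in those of P0, and Pbx2 and the Pknox genes overlap between stages.

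Genes known to set Hox domains were mostly low or did not pass the test. Of 12, 6 were tested and 2 (33.3%) were lower at P0, against 12.0% of all genes tested. In edgeR 0 were higher, also at an unadjusted p under 0.05, and 0 in DESeq2 and limma-voom. Rarb, a retinoic acid receptor gene that itself responds to retinoic acid, was at 11.8, 13.3, 12.0 and 30.5 CPM at E12.5 and at 2.67, 6.92, 4.47 and 3.64 CPM at P0 (log2 fold change -1.92, adjusted p = 0.00797). Gdf11, the secreted factor of the trunk to tail transition, averaged 32.3 ± 13.4 CPM and then 10.4 ± 2.71 CPM (log2 fold change -1.64, adjusted p = 0.00512). Cdx4 had 0 counts in all litters, Cdx1 had 0 in all E12.5 litters, and Cdx2, Fgf8 and Wnt3a were too low to be tested.

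Among 17 Trithorax and Polycomb genes, all tested, 3 (17.6%) were lower and 1 higher at P0. These counts lie near or below the 12.0% lower and 16.0% higher of all genes tested, and nothing is read from them about the group. Cbx2, a Polycomb chromatin reader whose loss in mice transforms vertebrae, was at 41.3, 43.9, 42.8 and 45.5 CPM at E12.5 and at 6.60, 5.34, 13.4 and 5.46 CPM at P0 (log2 fold change -2.48, standard error 0.33, adjusted p = 0.000522). Its E12.5 litters were nearly equal and its stages far apart. The other lower genes, Phc1 (log2 fold change -1.35, adjusted p = 0.00194) and Pcgf2 (log2 fold change -1.24, adjusted p = 0.00988), encode partners of the same complex. Other genes of that complex did not pass and went both ways. Cbx7, Cbx8, Bmi1 and Ring1 had log2 fold changes of 1.62, 0.52, 0.50 and 0.41, and Rnf2 and Phc2 of -0.32 and -0.69. In DESeq2 Cbx7 was called higher and Phc2 lower (adjusted p = 0.034 and 0.0335). The gene called higher in edgeR was Ezh1, which encodes a methyltransferase of the other Polycomb complex, with a log2 fold change of 1.02 (adjusted p = 0.0208). Its call depended on the litters used, holding in 12 of 17 alternatives. Kmt2a, the Trithorax gene that keeps Hox genes active, averaged 316 ± 27.5 CPM and 232 ± 111 CPM (adjusted p = 0.372).

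Genes flanking the clusters were looked at in the same fit. Of the 16 protein-coding genes nearest to the cluster ends, 2 on each side, 11 were tested, 2 (18.2%) were lower and 3 were higher at P0, against 12.0% lower and 16.0% higher of all genes tested, and nothing is read from these counts about the flanking genes. On the HoxA side, Skap2, at 149.9 kb, was at 19.8, 16.4, 11.1 and 11.3 CPM at E12.5 and at 62.6, 63.7, 63.6 and 46.4 CPM at P0 (log2 fold change 2.01, adjusted p = 0.000492), and Snx10 rose by 1.75 (adjusted p = 0.00156). Near HoxC, Cbx5 and Smug1 had log2 fold changes of -1.34 and -0.93 (adjusted p = 0.00247 and 0.0482), and near HoxB that of Snx11 was 1.90 (adjusted p = 0.0339). The calls of Smug1 and Snx11 depended on the litters used and on the method. Of the HoxD neighbours tested, Lnpk, Mtx2 and Hnrnpa3, none passed, with log2 fold changes from -0.65 to -0.10. The homeobox genes Evx1 and Evx2, next to HoxA and HoxD, were at or below 1.87 CPM in every litter and were not tested.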

How the data were processed

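NDC RNA of 4 E12.5 and 4 P0 litters was sequenced from TotalScript libraries. The authors used STAR 2.4.0j and GRCm38.p3 for alignment and htseq-count with Gencode M4 for counting, and deposited the counts unnormalized. The strand setting and overlap mode are not given in the sources used here. Summary lines, which name no gene and held 65.2% to 77.4% of reads tallied, were left out. Stages came from the age given for each sample. Symbols, positions and exon lengths came from Gencode M21 on GRCm38.

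Tests over the whole table used edgeR 4.0.16 (R 4.3.3): TMM, filterByExpr (minimum count 10, minimum total 15), the robust quasi-likelihood F-test and Benjamini-Hochberg adjustment over 15467 genes, and calls were made at adjusted p under 0.05. Standard errors are the log2 fold change over the square root of F. CPM uses TMM library sizes. Every listed Hox gene is reported, and of the pathway lists and cluster neighbours the 3 largest changes past the threshold in each direction, besides genes given for context.

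Alternatives were DESeq2 1.42.0, limma-voom 3.58.1, other size factors, filters and depths, and litters left out. Members and lists were chosen with earlier results of these data known. Some genes of these lists are not reported here and stand in no count of their list. Replicates differed by more than sampling noise and were kept apart.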

Additional observations from a re-analysis of the deposited data

Results flagged for a closer look

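In 5 of the 75 sets of 4 litters in which a Hox gene had unequal CPM, 1 litter lay far from the others by Dixon's gap test, 4 at P0 and 1 at E12.5. Chance alone marks about 1 set in 20.

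Hoxa5 at P0 was at 24.6 CPM in NPD30 and at 10.1 to 10.5 CPM in the other litters. Hoxa11 at P0 was at 1.15 CPM in NPD27 and at 0.118 to 0.157 CPM in the others, the latter from 1 count each. Hoxa13 at P0 was at 0.944 CPM in NPD26 and at 0 to 0.152 CPM in the others. Hoxd12 at P0 was at 1.87 CPM in NPD27 and at 0 in the others. Hoxb2 at E12.5 was at 4.95 CPM in NDP10.2 and at 3.20 to 3.32 CPM in the others.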

How the results depend on the processing

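The 20 lower Hox genes kept their direction in every fit that tested them. Over the alternatives other than leaving out 1 litter, 250 of 272 values of single Hox genes stayed on the same side of the threshold with the same sign, 10 lost the call, 9 gained it and 3 changed sign. Leaving out 1 litter gave 18 to 22 lower Hox genes, in fits that called 9.46% to 12.0% of all genes lower. Without NDP10.2 and NPD9.2 there were 11 lower Hox genes and 1 lower inducer, against 6.41% of all genes. In that fit Rarb, Meis3 and Pcgf2 lost their calls, and with fewer samples the test finds less. Without a filter, 24 Hox genes were lower and 1 was higher, Hoxb13, against 5.97% lower and 9.18% higher of all genes. DESeq2 gave 1 higher cofactor, Pbx4, and called 18.3% of all genes higher. Trithorax and Polycomb genes lower at P0 numbered 5 with upper quartile normalization and 5 with DESeq2, and 3 to 6 with 1 litter left out, where 0 to 1 were higher, with 6 lower without NPD28 and 0 higher without NPD4, NPD9.2 or NPD28. Higher ones numbered 2 without a filter, 2 with DESeq2 and 2 with limma-voom, against 9.18%, 18.3% and 14.2% of all genes. Nothing is read from these counts about the group. Upper quartile normalization moved the median log2 fold change of all genes to -0.11. The sign of Hoxb2 turned on downsampled counts (0.026) and without NDP10.2 and NPD9.2 (0.016), and with 1 litter left out its log2 fold change ran from -0.41 to 0.050. A second random draw of the downsampled counts, added after the data were seen, gave -0.39 for Hoxb2 and 20 lower Hox genes. The sign of Hoxc11 turned, to 0.45 without NDP10.2 and NPD9.2. The share of HoxA at E12.5 was 29.1% per kb. The cause of these shifts was not tested. No paired analysis was possible because the labels name each sample by its litter and link no litter of 1 stage to a litter of the other.

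Low counts limit some genes: the 6 untested genes and the P0 values of Hoxc4, Hoxc11, Hoxc13, Hoxd4 and Hoxd12 lie near or under the 3-count floor in some litters, so the sizes of their changes are uncertain.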
